A study of Mus musculus with 2 samples.

Results

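The genes described here are 9 that mark lipid-associated macrophages, the Trem2-dependent state that macrophages enter when they take up much lipid: Trem2, Gpnmb, Spp1, Lgals3, Fabp4, Fabp5, Lpl, Cd9 and Plin2. They were chosen by gene symbol, with earlier results of these data known, and are represented by 10 of the 39429 probes on each array and by 9 of the 16996 genes measured on both arrays. Expression was measured on 2 one-colour arrays, 1 hybridised with RNA of cells cultured with the herbal medicine ninjin'yoeito (NYT) and 1 with RNA of cells cultured without it (control). Both held bone marrow mononuclear cells of C57/Bl6J mice aged 2 to 4 months, flushed from femurs and collected at day 11. Both cultures had 2% fetal bovine serum. The sources used here state neither the dose nor whether the cultures shared donor animals. Mononuclear cells are a mixture of blood-forming, immune and adherent cells, so a lower signal can come from fewer cells of a type or from less RNA per cell, and these cannot be told apart. With 1 array per group no test was possible, and every difference below compares 2 arrays without a replicate check.

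Trem2 is a surface receptor that binds lipids and lipoproteins and signals through the adaptor Tyrobp. In mouse adipose tissue, atherosclerotic plaques and brain, macrophages or microglia that take up lipid express it together with genes that shuttle fatty acids (Fabp4, Fabp5), release them from lipoproteins (Lpl) and coat the droplets that store them (Plin2). The same cells express the membrane glycoprotein Gpnmb, the tetraspanin Cd9, the secreted phosphoprotein osteopontin (Spp1) and the carbohydrate-binding galectin-3 (Lgals3). Several of these genes are also expressed by other cells, Fabp4, Lpl and Plin2 by adipocytes and Gpnmb and Spp1 by osteoclasts.

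Each gene was read by a 60-base probe, and Lpl by 2. The first 30 bases of the probes of 8 of the 9 genes are shown, because every value below is the signal of 1 such oligonucleotide.
Trem2: acagctggatggttgtctgtcaacttctgc
Spp1: aggtgatagcttggcttatggactgaggtc
Lgals3: tttctctctccttatccttcttgtaagaca
Fabp4: aagaggcctggatggaaatttgcatcaaac
Fabp5: gtcaaatgcaacaaacagcttcacttcttt
Lpl at transcript base 1340: cgaggtttccacaaataaaacctactcctt
Lpl at transcript base 3484: gaacaccaacccacatgcaaaaccccacaa
Cd9: cctgcaatgaaaggtactatatttgccaga
Plin2: ctggccagatgaccccttttgctgtattga
No 2 of the 10 probes shared a run of more than 9 bases, those of the related genes Fabp4 and Fabp5 included. On mouse build mm9 the Trem2 probe lies on chromosome 17 at 48491537 to 48491596 on the plus strand, and the Cd9 probe on chromosome 6 at 125410387 to 125410446 on the minus strand. The Fabp5 and Fabp4 probes lie 188208 bases apart on chromosome 3, at 10016185 to 10016244 on the plus strand and at 10204452 to 10204511 on the minus strand. The Spp1 probe lies on chromosome 5 at 104868502 to 104868561, that of Lgals3 on chromosome 14 at 48005414 to 48005473, and that of Plin2 on chromosome 4 at 86302847 to 86302906. The Lpl probes lie on chromosome 8 at 71425050 to 71425109 and at 71430267 to 71430326.

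All 9 genes gave signal well above background on both arrays, and none was saturated. After scaling each array to its 75th percentile, all 9 were higher on the NYT array, by between 0.35 (Cd9) and 1.65 (Gpnmb) on the log2 scale, with a median of 1.17. At least 2-fold higher were 6 of the 9, Gpnmb, Trem2, Fabp4, Spp1, Fabp5 and Lgals3, and 0 were at least 2-fold lower. Over all measured genes 11.2% passed 2-fold in the higher direction and 11% in the lower, with a median difference of 0.29. The genes were chosen on this contrast, so the count is a description. Before scaling the NYT array was dimmer, its 75th percentile intensity being 728 against 1476 on the control array. The scaling therefore adds 1.02 to every log2 difference, and 6 of the 9 genes were above 0 without it.

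**Figure D1:**
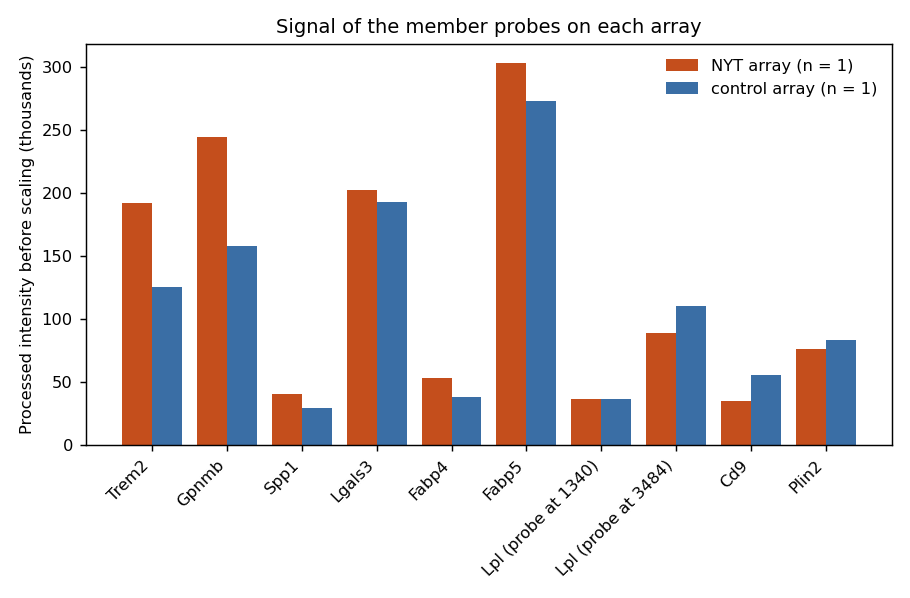
Processed intensity before scaling, on a linear axis from 0, for the 10 probes on the NYT array and the control array (1 array each, so no error bars). Trem2, Gpnmb, Spp1 and Fabp4 stand clearly higher on the NYT array, Lgals3, Fabp5 and the Lpl probe at transcript base 1340 are nearly level, and Cd9, Plin2 and the other Lpl probe are lower.

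Among the surface proteins, Trem2 had a processed intensity of 192292 on the NYT array, against 125730 on the control array. Its signal was thus higher on the NYT array even before scaling, 1.53-fold, and 3.10-fold after it. Gpnmb, a glycoprotein of the lysosome and cell surface, had 244614 on the NYT array and 158028 on the control array. It was 1.55-fold higher before scaling and 3.14-fold after it, so that these genes differed from each other by 0.02 on the log2 scale. Cd9, a tetraspanin that organises membrane proteins, had 34770.1 on the NYT array and 55439 on the control array. It was lower on the NYT array before scaling (log2 difference -0.67) and 1.27-fold higher after it. Of the 16996 genes, 457 had a larger scaled difference than Trem2 and 440 a larger one than Gpnmb, whereas Cd9 lay near the middle, with 53.8% of genes at or below it.

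Among the secreted proteins, Spp1, which binds integrins and Cd44, had 40699.7 on the NYT array and 29605 on the control array. It was 1.37-fold higher before scaling and 2.79-fold after it, with 96.3% of genes at or below its difference. Lgals3, which binds galactosides and gathers at damaged lysosomes, had 202671 on the NYT array and 193096 on the control array. The arrays were nearly level for Lgals3 before scaling, at 1.05-fold, and the scaled difference of 2.13-fold came from the scaling in all but 0.07 of its log2 value of 1.09.

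Lpl, the lipase that frees fatty acids from triglyceride-rich lipoproteins, was the only one of the 9 with more than 1 probe. Its probe at transcript base 3484 had 89027 on the NYT array and 110524 on the control array, which gave a scaled log2 difference of 0.71. Its probe at transcript base 1340 had 36755 on the NYT array and 36533 on the control array, a scaled difference of 1.03. Both probes were higher on the NYT array after scaling, but 1 lay below and 1 just above 2-fold. The gap between them, 0.32, is a measure of how far probes of a gene can differ here, and over the 4048 genes with several measured probes the median gap was 0.34.

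Among the intracellular lipid carriers, Fabp4, which binds fatty acids in macrophages and adipocytes, had 53032 on the NYT array and 38050.1 on the control array. It was 1.39-fold higher before scaling and 2.83-fold after it. Its relative Fabp5 had 303199 on the NYT array and 273098 on the control array, or 1.11-fold before scaling and 2.25-fold after it. The gap between these relatives, 0.33 on the log2 scale, was below the median gap of 0.34 between probes of a gene, so their order cannot be given. Plin2, the coat protein of lipid droplets in most cells, had 76494 on the NYT array and 83336 on the control array. It was slightly lower on the NYT array before scaling (-0.12) and 1.86-fold higher after it, below the 2-fold line.

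Ordered by scaled difference, the genes ran Gpnmb, Trem2, Fabp4, Spp1, Fabp5, Lgals3, Plin2, Lpl and Cd9. The first 4 lay within 1.48 to 1.65, and the step from Spp1 to Fabp5 was 0.31. No step between neighbours reached the median gap of 0.34 between probes of a gene, except that from Lpl to Cd9, at 0.36, so neighbours in the order cannot be separated. Each difference was larger than spot noise, whose median SD for a difference was 0.053 over 247 repeated probes. That SD holds the noise between spots, and not the spread between cultures.

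**Figure D2:**
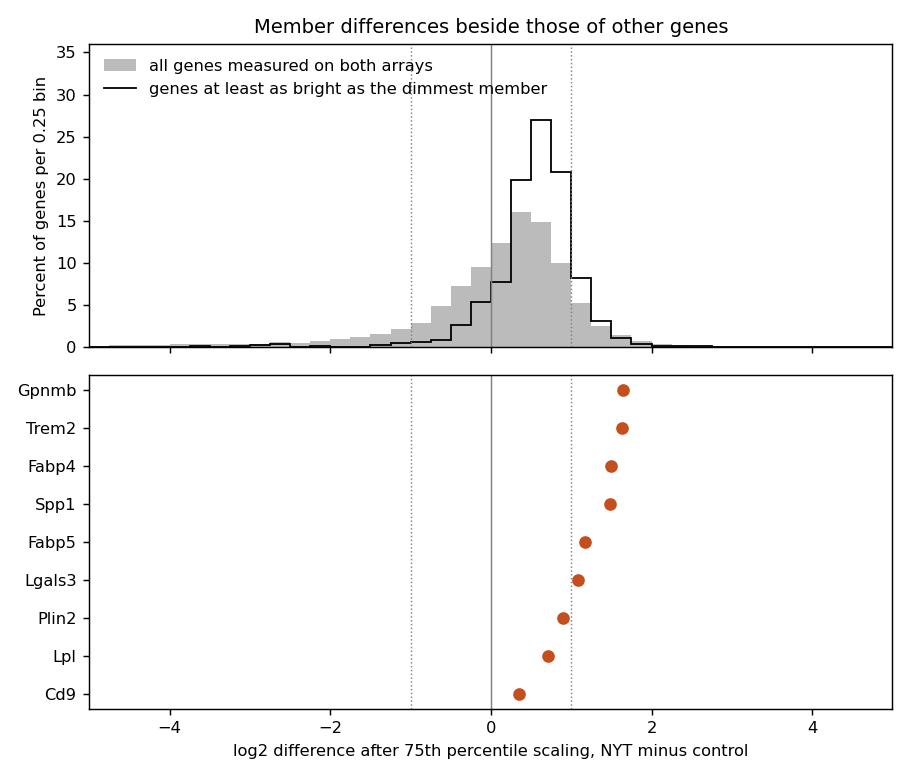
Scaled log2 differences, NYT minus control, as a histogram in percent of genes (upper panel, all 16996 genes and the 987 genes at least as bright as the dimmest of the 9) and for each of the 9 genes (lower panel, 1 point each, no error bars). All 9 points lie right of 0 and 6 lie right of the dotted line at 2-fold.

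All 9 genes are bright, and bright genes as a class were shifted upward on the NYT array. Of the 987 genes at least as bright as the dimmest of the 9, 131 (13.3%) passed 2-fold upward and 18 (1.82%) downward, with a median of 0.61. The median of the 9 genes lay 0.56 above that of these bright genes and 0.88 above that of all genes, and 8 of the 9 exceeded the median of the bright genes, the exception being Cd9. The bright genes have only a lower bound on brightness and were not matched to the brighter of the 9. Methods that level such a trend with brightness gave smaller differences. After quantile normalization 2 of the 9 were at least 2-fold higher, Fabp4 (1.07) and Spp1 (1.06), with Gpnmb at 0.97 and Trem2 at 0.96. After loess 0 were, although Trem2, Gpnmb, Spp1 and Fabp4 all lay between 0.97 and 0.98. Against the medians of all genes under those settings, 0.20 and -0.02, the medians of the 9 genes were 0.37 and 0.46.

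Trem2, Gpnmb, Spp1 and Fabp4 were higher on the NYT array under all 11 alternative settings, down to 0.45, 0.47, 0.30 and 0.32 when the arrays were scaled to spike-in RNA. The 11 are not separate checks. Averaging over probes, keeping dim probes and another detection flag cannot change the value of these single-probe genes. The authors' deposited value table is quantile normalized in effect, so it repeats that setting. Fabp5 and Lgals3 stayed above 0 in 10 of the 11 and stood at -0.0097 and -0.091 with spike-in scaling. Plin2 and Lpl were below 0 in 2 of the 11, without scaling and with spike-in scaling. Cd9 was below 0 in 5 of the 11 (-0.09 after quantile normalization and in the authors' deposited value table, -0.18 after loess, -0.67 without scaling and -0.83 with spike-in scaling), so no direction is given for it.

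**Figure D3:**
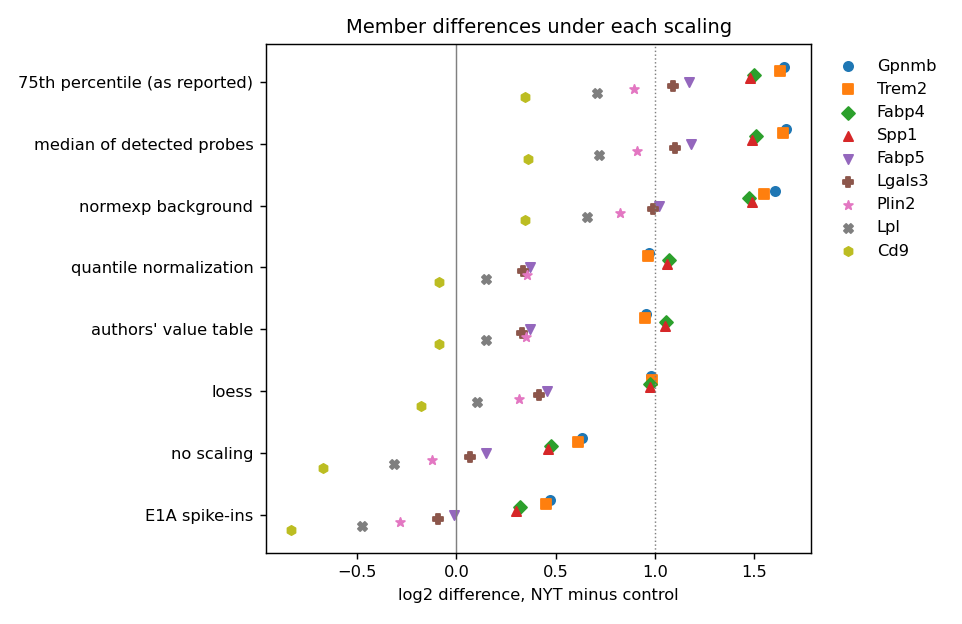
Log2 difference, NYT minus control, of each of the 9 genes (1 symbol per gene) under 8 settings of scaling and background, with lines at 0 and at 2-fold. Trem2, Gpnmb, Spp1 and Fabp4 stay together at the right in every row, and Cd9 crosses 0 in 5 rows.

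Transcription start regions were searched for short motifs of factors known to act on these genes. The RefSeq table for build GRCm38.p6 held regions of 300 bases, from 250 before to 50 after the start, for 6 of the 9 genes. Those of Trem2, Gpnmb, Spp1 and Plin2 are shown 5′ to 3′ because they held a motif, with the motif in capitals.
Trem2, chr17:48346151-48346450, plus strand: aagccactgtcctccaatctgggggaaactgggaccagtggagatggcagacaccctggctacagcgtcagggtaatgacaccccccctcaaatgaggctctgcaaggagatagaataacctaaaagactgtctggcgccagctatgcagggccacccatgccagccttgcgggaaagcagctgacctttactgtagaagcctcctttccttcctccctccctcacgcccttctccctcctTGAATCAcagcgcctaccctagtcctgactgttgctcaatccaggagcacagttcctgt
Gpnmb, chr6:49036268-49036567, plus strand: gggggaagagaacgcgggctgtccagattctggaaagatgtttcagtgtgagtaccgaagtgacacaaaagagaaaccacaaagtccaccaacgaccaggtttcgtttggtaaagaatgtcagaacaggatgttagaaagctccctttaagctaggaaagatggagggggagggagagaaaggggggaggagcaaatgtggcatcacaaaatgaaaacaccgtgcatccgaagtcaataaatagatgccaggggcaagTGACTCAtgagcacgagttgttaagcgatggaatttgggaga
Spp1, chr5:104434861-104435160, plus strand: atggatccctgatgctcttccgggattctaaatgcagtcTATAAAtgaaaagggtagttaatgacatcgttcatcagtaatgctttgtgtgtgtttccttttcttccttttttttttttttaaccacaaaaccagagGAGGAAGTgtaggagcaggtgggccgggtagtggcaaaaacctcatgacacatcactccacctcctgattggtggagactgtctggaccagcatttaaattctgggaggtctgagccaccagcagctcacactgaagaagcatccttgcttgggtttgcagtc
Plin2, chr4:86670010-86670309, minus strand: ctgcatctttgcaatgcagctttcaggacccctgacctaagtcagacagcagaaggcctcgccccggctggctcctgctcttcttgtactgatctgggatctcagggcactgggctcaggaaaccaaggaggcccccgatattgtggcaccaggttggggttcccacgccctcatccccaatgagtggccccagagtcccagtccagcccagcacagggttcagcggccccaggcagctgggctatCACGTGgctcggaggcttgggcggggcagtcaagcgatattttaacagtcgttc
The motif in the Trem2 and Gpnmb regions is TGANTCA, a loose form of the AP-1 site that allows any base at its centre. It starts 9 bases before the start in Trem2 and at base 9 of the transcript in Gpnmb. The centre base is A in Trem2, a match to the loose form only, and C in Gpnmb. The loose form reads the same on both strands and, with any centre base, occurred in 7.81% of the 32851 regions in the table. The Plin2 region held CACGTG, the E-box bound by MiT factors, across its start, as 7.15% of all regions did. This Spp1 region held TATAAA at base -211 from the start, far from it, and 13.6% of regions held these letters. It also held GAGGAAGT, the site of the myeloid factor PU.1, at base -113, as 3.20% of regions did. The other Spp1 region in the table held none of the motifs searched. The letters TCATGTG, the M-box, and the direct repeat bound by PPAR with RXR were in none of the 7 regions of these genes, and were in 3.77% and 0.0396% of all regions. Motifs were searched on both strands. A match is a stretch of letters and was not tested as a binding site.

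For other genes of the lipid-associated programme the count past 2-fold depended on the scaling. Of 30 further genes, all measured, 14 passed 2-fold upward, 3 downward and 13 in neither direction as scaled, with a median of 0.94 against 0.29 for all genes. The shares past 2-fold were 11.2% upward and 11% downward over all genes, and 13.3% and 1.82% among the bright genes. After quantile normalization 5 of the 30 were higher and 4 lower, after loess 3 and 4, and without scaling 0 and 6. The list's median was then 0.30, 0.31 and -0.08, against 0.20, -0.02 and -0.73 for all genes. The 3 lower genes were Axl, a receptor for apoptotic cells (-2.26), Itgax, the integrin Cd11c (-2.15), and Cst7, a protease inhibitor of lipid-laden microglia (-1.96), and all 3 were lower under every scaling tried. The largest positive difference was that of Syngr1, a vesicle membrane protein, with 1.78 by 1 probe and 0.66 by another. Apoe, the main apolipoprotein of these cells and chosen here for that role with its value known, had a processed intensity of 114931 on the NYT array and 412484 on the control array, a scaled difference of -0.82. The list was thus not uniform.

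The Trem2 receptor's relatives and signalling partners had a median below 0. Of 18 genes of the TREM family and of TREM2 signalling, 1 passed 2-fold upward and 4 downward, with a median of -0.47. These are shares of 5.56% and 22.2%, against 11.2% and 11% of all genes. Treml1, a receptor of platelets, differed by -3.78, Trem3 by -3.16 and Treml2 by -2.37 (-1.36 by another probe). Lat2, an adaptor of immune receptor signalling, stood at 1.85. Tyrobp, the adaptor Trem2 needs, and Syk, the kinase it recruits, were named for those roles with their values known. Tyrobp had 134679 on the NYT array and 218649 on the control array, a scaled difference of 0.32 that turned to -0.37 after quantile normalization, and the probes of Syk gave -0.13 and 0.60. The scaled signal of the receptor thus differed by 1.63 and that of its adaptor by 0.32.

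Genes that store and free lipid differed in both directions. Of 16 measured genes of the lipid droplet, 4 were at least 2-fold higher, 3 lower and 9 neither, with a median of 0.51. These are shares of 25% and 18.8%, against 11.2% and 11% of all genes. Mgll, which releases the last fatty acid from a glyceride, was 2.69 higher, with the nearest of its other probes at 2.84, and Hilpda, a droplet protein that inhibits lipolysis, was 2.60 higher, with 2.59 by its other probe. The enzymes that complete triglyceride synthesis were lower, Dgat2 at -2.96 and Dgat1 at -1.81. Of Plin2's own family, Plin3 stood at 1.31, Plin4 at -0.03, Plin5 was well above background on the control array alone (a bound of 2.45-fold), and Plin1, the adipocyte perilipin, was not measured. These 4 named differences beyond 2-fold (Mgll, Hilpda, Dgat2 and Dgat1) kept their direction under every scaling tried.

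The 10 measured fatty acid binding proteins and fatty acid importers other than Fabp4 and Fabp5 had a median of 0.30. At least 2-fold higher were 2 of them and lower 1, or 20% and 10%, against 11.2% and 11% of all genes. Fabp3, the heart-type protein, had 993 on the NYT array and 167 on the control array, a scaled difference of 3.59 that was 3.09 with normexp background correction. Fabp12 (1.18) and Fabp2 (-1.21) were dim on both arrays, and Fabp2 stood at -0.02 with normexp. Acsl3, which activates fatty acids, stood at 0.88.

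The partners of Lpl were mostly within 2-fold, with 1 of 17 measured genes higher, 3 lower and a median of 0.11. These are shares of 5.88% and 17.6%, against 11.2% and 11% of all genes. Lower were Vldlr, a lipoprotein receptor (-2.84), Apoc2, the apolipoprotein that activates Lpl (-2.58), and Angptl4, which inhibits it (-2.24). The higher gene was Lipa, the lysosomal acid lipase (1.35, and 0.33 without scaling). Activator and inhibitor of Lpl were both lower on the NYT array, while the lipase itself stood at 0.71 and 1.03 by its probes.

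The families of osteopontin, galectin-3 and Cd9 held 1 or 2 genes past 2-fold in each direction, and nothing is read from these counts, since 11.2% of all genes passed upward and 11% downward. Of 11 measured members of the osteopontin family and its receptors, 1 was at least 2-fold higher, Itga5 (1.60), and 2 lower, the integrin Itga9 (-3.05) and the matrix protein Thbs1 (-2.35). The probes of Itgb1 gave 0.97 and 2.32. The bone matrix relatives Dspp and Ibsp were well above background on the control array alone, with bounds of at least 11.7-fold and 3.57-fold. Of 7 measured galectin genes, 1 was higher, Lgals1 (1.32), and 2 lower, Lgalsl (-2.08) and Lgals4 (-1.20). Lgals6, a near copy of Lgals4, stood at -0.94, or 0.16 with normexp. Lgals2 was well above background on the NYT array alone, at 26.2 against 21.5 on the control array. Its bound of at least 2.04-fold higher is after the scaling, which alone adds 2.03-fold. Of 19 measured tetraspanins and Cd9 partners, 2 were higher, Ptgfrn, a protein bound by Cd9 (1.76), and the lysosomal Cd63 (1.16, and -0.02 with spike-in scaling), and 2 lower, Tspan33 (-2.91) and Tspan2 (-1.11), leaving 15 within 2-fold like Cd9.

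Regulators known for these genes were examined as groups. The MiT factors drive lysosomal genes and Gpnmb. Of 12 measured genes around them, 4 were at least 2-fold higher and 0 lower as scaled, with a median of 0.66. Among all genes 11.2% passed 2-fold upward and 11% downward. After quantile normalization 4 of the 12 were higher and 0 lower, and after loess 3 and 0. Without scaling the counts were 2 and 2, and with spike-in scaling 1 and 3. Their median was -0.36 and -0.52 in the last 2 settings, against -0.73 and -0.89 for all genes. The 4 higher as scaled were Rragd (3.63, or 2.56 with normexp), Fnip2 (2.18), the lysosomal channel Mcoln1 (1.51 by 1 probe and 0.24 by another) and the autophagy receptor Sqstm1 (1.24 and 0.46). The factors themselves, named for their role with values known, were within 2-fold. Mitf stood at -0.26 by 1 probe and 0.48 by another, Tfe3 at 0.36, Tfec at -0.21 and Tfeb at 0.13. The 22 measured genes of the PPAR and LXR lipid programme had a median of 0.20. Of these, 0 were at least 2-fold lower and 3 (13.6%, against 11.2% of all genes) at least 2-fold higher. The 3 higher genes were Scd2, a fatty acid desaturase (1.79), the cholesterol exporter Abcg1 (1.26) and Srebf1 (1.05, and -0.13 with spike-in scaling). Nr1h3, the LXR receptor of macrophages, stood at 0.94 by 1 probe and 1.08 by another. Pdk4, a PPAR target, was well above background on the control array alone (at least 2.05-fold lower). Pparg, which drives Fabp4 and was named for that role with its value known, stood at 0.46.

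**Figure D4:**
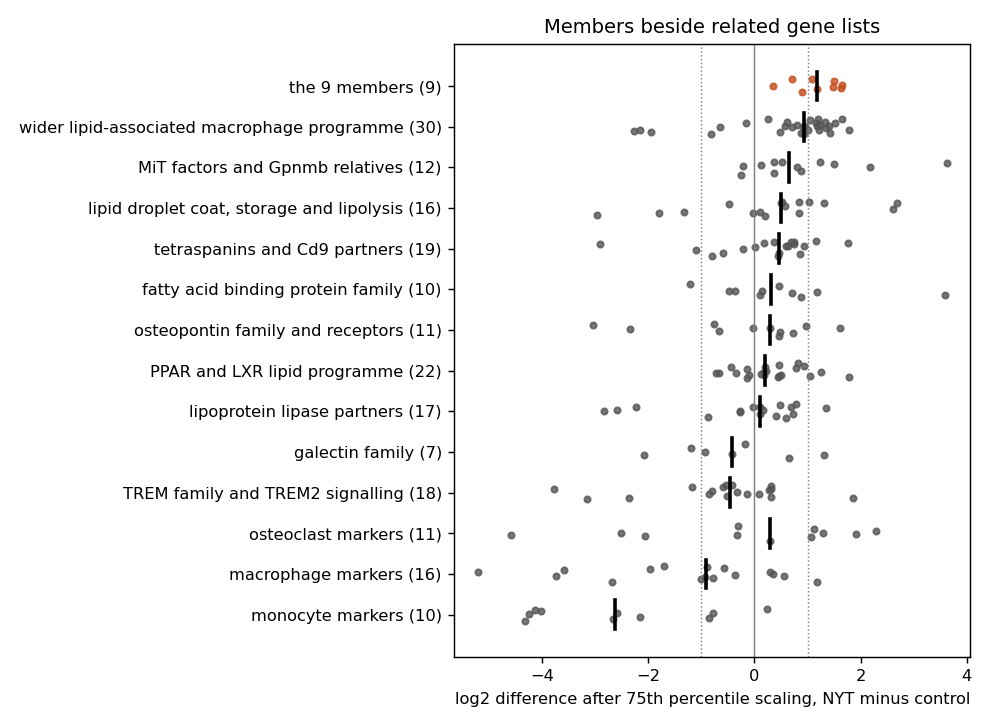
Scaled log2 differences, NYT minus control, of every gene measured on both arrays in each list (points, spread vertically at random), with the list median as a black bar, the number of genes in parentheses and dotted lines at 2-fold. The 9 genes lie between 0.35 and 1.65, while the related lists spread to both sides of 0 and the monocyte markers lie mostly at the left.

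Markers of the cell types that could carry these transcripts had medians below 0 for macrophages, monocytes and adipocytes, and went in both directions for osteoclasts. Of 16 measured macrophage markers, 1 was at least 2-fold higher, Cd68 (1.18), and 7 lower, with a median of -0.91. The lower genes were led by C1qa (-5.21), C1qb (-3.74) and C1qc (-3.58). Among all genes 11.2% passed 2-fold upward and 11% downward. The summed processed intensity of the macrophage markers was 350457 on the NYT array and 850451 on the control array. All sums of markers are before scaling, which raises the NYT array 2.03-fold against the control array. Csf1r, the receptor that sustains macrophages and was chosen here for that role with its value known, had 54387 on the NYT array and 204061 on the control array, so macrophage transcripts were present on both. Of 10 measured monocyte markers 0 were higher and 7 lower, with a median of -2.64. Their summed intensity before scaling was 136293 on the NYT array and 553238 on the control array. The 9 genes are therefore named here by their known role, and not as a count of macrophages, whose general markers were lower.

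Of 10 adipocyte markers, 3 were measured on both arrays and 0 were higher, and the defining markers Adipoq, Lep, Plin1 and Cidec were not well above background on both arrays. Pck1, an enzyme of glycerol supply in adipocytes, was well above background on the NYT array alone, at a processed intensity of 29.3. Its bound of at least 2.28-fold higher is after the scaling, which alone adds 2.03-fold. The 3 measured adipocyte markers summed before scaling to 16136 on the NYT array and 43842 on the control array. Adipor2 alone gave 16032 and 43246 of these, with a scaled difference of -0.41, so the sums hold little of the other markers. Of 11 measured osteoclast markers, 5 were at least 2-fold higher and 3 lower, with a median of 0.29. Among all genes the shares were 11.2% and 11%. Before scaling these markers summed to 86293 on the NYT array and 143907 on the control array. The scaling raises the NYT sum 2.03-fold against the control sum, and so above it. After quantile normalization or loess 2 of the 11 were higher and 3 lower. Ctsk, the cathepsin of bone resorption, was higher (2.29) and Tcirg1, a proton pump subunit, too (1.92). The other higher genes were Atp6v0d2 (1.28, and 0.35 by another probe), Clcn7 (1.12) and Tnfrsf11a (1.06). Mmp9, Dcstamp, which fuses osteoclast precursors, and Acp5, the classical osteoclast phosphatase, were lower at -4.58, -2.52 and -2.06. Calcr, the calcitonin receptor, was well above background on the NYT array alone, at a processed intensity of 27.1. Its bound of at least 2.11-fold higher is after the scaling, which alone adds 2.03-fold. The part of osteoclast-like cells in the Spp1 and Gpnmb signal was not tested.

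Markers of other cells moved with the comparison. All 8 measured mast cell and megakaryocyte markers passed 2-fold downward (median -4.57), as 11% of all genes did. Their summed intensities before scaling were 22862 on the NYT array and 435513 on the control array. Of 10 neutrophil markers, 8 were lower (median -3.13), with sums before scaling of 236631 on the NYT array and 1119254 on the control array. Of 7 measured osteoblast and stromal markers 3 were lower and 1 higher, of 5 endothelial markers 3 were lower, and of 8 lymphocyte markers 2 were lower, the last 2 lists with medians of -1.88 and -0.39. These lower values stand beside the higher scaled signal of the 9 genes, and their part in it was not tested.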

How the data were processed

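Per the labels' protocols, Cy3-labelled cRNA was hybridised to Agilent whole mouse arrays. The deposited scanner files hold 1 intensity per spot, which the file headers credit to Feature Extraction 10.7.1.1 and the submitters' processing notes to 9.5.1.1. The processed intensity was detrended within each array, per the file headers, with no scaling between arrays. The authors' deposited value table of the same arrays is a linear intensity, quantile normalized in effect, since sorted values were equal within 1e-06 for 39073 of 39429 probes; its further making is not stated.

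Outlier spots were removed, 165 on the NYT and 258 on the control array, and spots of a probe were averaged as log2 processed intensity. The 75th percentile over probes was then subtracted per array. A probe was well above background when over 50% of its spots were flagged so, which held for 57.7% of probes on the NYT array and 62.2% on the control array. A gene stood by its brightest such probe on both arrays. Genes detected on 1 array were given a bound: on the dim array, whichever was higher of the probe's own value and the lowest value counted as above background. Names came from RefSeq (GRCm38.p6), by accession for 26761 probes, and probe coordinates are those of the scanner files (mm9).

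With 1 array per group no test was run, and the number of arrays limits the precision. The genes, the 19 companion lists, the motifs and the alternatives were chosen with earlier results of these data known. From each list up to 4 genes with the largest difference, and those detected on 1 array with a bound of at least 2-fold, were open to being named. Genes named for their role are marked as such. Named outside this rule, with their values known, were Cd68, Tcirg1, Atp6v0d2, Clcn7, Tnfrsf11a, Plin3 and Plin4, and the unmeasured Plin1, Adipoq, Lep and Cidec. Python 3.11.15, pandas 2.3.3, R 4.3.3 and limma 3.58.1 (normexp with an offset of 50, loess) were used. The sequence of 1 probe is not reported here. The counting step was tested on simulated probes.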

Additional observations from a re-analysis of the deposited data

How the results depend on the processing

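No paired analysis was possible because there was a single array for NYT and for control, which also leaves none to omit. The median of the 9 genes, 1.17 as reported, was 1.02 with normexp background correction, 0.46 after loess, 0.37 with quantile normalization and in the authors' deposited value table, 0.15 without scaling and -0.0097 with spike-in scaling. Of the 9, 6 were at least 2-fold higher as reported, 2 with quantile normalization, in the authors' deposited value table and at a 3-fold threshold, and 0 after loess, without scaling and with spike-in scaling. With spike-in scaling the differences of Lgals3 and Fabp5 turned to -0.091 and -0.0097. Over all genes, 1908 were at least 2-fold higher and 1868 lower as reported. These counts were 211 and 6190 without scaling, 166 and 7485 with spike-in scaling, 4755 and 3414 when dim probes were kept, 507 and 1167 at 3-fold, and 131 and 18 among genes at least as bright as the dimmest of the 9, a setting added after seeing the data, as was subtraction of the local background. After loess 950 were higher and with another detection flag 3577. The cause was not tested for any of these changes, except that another filter or threshold changes the genes that enter, and that removing the scaling lowers each difference by 1.02 and spike-in scaling by 1.18. The order of the 9 genes was the same without scaling and with spike-in scaling, which shift every gene alike, and in all settings Cd9 was the lowest. The median of the 9 lay above that of all genes in each setting, by 0.88 as reported and by 0.17 with quantile normalization, the smallest of the 11 alternatives. The genes were chosen on this contrast, so this gap is a description. Settings that shift every gene alike cannot change it.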
